A study of Mus musculus with 12 samples.

Results

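The genes described here are the 109 of 24421 genes in the count table whose mRNA was already low at 1 nM dTAG13 and was lower than 50% of control at 100 nM dTAG13. They were chosen on their values: the counts of a gene, scaled to a library total of 1000000 (CPM), were averaged over the 2 libraries of a dose, and a gene was taken if its control mean was at least 5 CPM, its 1 nM mean at most 0.65 of control and its 100 nM mean at most 0.5 of control. Of the 9786 genes that met the control minimum, a further 252 met the 100 nM limit but not the 1 nM limit, and these later-falling genes serve as the comparison. Values in the control, 1 nM and 100 nM libraries are therefore descriptions of how the genes were chosen. Tests were run only between 0.3, 3 and 10 nM, whose libraries the choice did not use.

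RNA-seq was performed on mouse embryonic stem (mES) cells of the strain B6, labelled 2i+LIF ESC, a name for culture with 2 kinase inhibitors and the cytokine LIF that keeps the cells in the naive pluripotent state. All 12 libraries, controls included, carry the genotype Brg1 dTag knock in, in which BRG1 bears a degron tag that lets the small molecule dTAG13 send the protein to the proteasome. The 6 groups were a control whose label gives no treatment and cells given 0.3, 1, 3, 10 or 100 nM dTAG13, each with 24 h as the treatment time and each with 2 libraries of total RNA. The cells came from colonies grown from single cells, so a group models the response of such a tagged line, and no untagged or untreated wild-type cells entered the comparisons.

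BRG1, encoded by Smarca4, is the main ATPase of the mSWI/SNF chromatin remodelers in mES cells. These complexes use ATP to slide or evict nucleosomes, which lets transcription factors and RNA polymerase reach promoters and enhancers. BRG1 is required for the self-renewal of pluripotent cells, and in many cell types it keeps enhancers of cell-type genes open.

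Total counts ran from 4663484 to 6375582 per library, and the ribosomal RNA gene Rn45s took 10.5 to 19.4% of them. The chi-square of the counts between the 2 libraries of a group was 2.03 to 18 per degree of freedom, so that no pair agreed within sampling noise, and the 3 nM pair differed most. The labels do not say whether the 2 libraries of a group were separate cultures, and p-values measure only the spread between them. Smarca4 mRNA, at 63.3 to 69.6 RPKM over the 12 libraries (CPM per kb of exon, with TMM library sizes), does not check the labels because dTAG13 acts on the protein. The 16 mES cell markers, Pou5f1 and Nanog among them, summed to 3632 to 4380 CPM in every library, whereas 10 fibroblast markers summed to 7.65 to 21.3 CPM. Fibroblast markers were at 12.8 and 13.3 CPM in the controls and at 21.3 and 15.4 CPM at 100 nM. From the control to 100 nM, 10 primitive endoderm markers went from 10.0 and 8.08 to 15.4 and 14.5 CPM, and 10 trophoblast markers from 55.2 and 47.7 to 74.2 and 74.0 CPM. The 10 early neural markers summed to 116 and 133 CPM in the controls and to 214 and 224 CPM at 100 nM. The part of these markers in the results was not tested. In bulk RNA, fewer cells expressing a gene and less RNA in each cell cannot be told apart.

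The 109 genes were mostly protein-coding genes of modest expression. By their RefSeq entries 105 were protein-coding and 3 were long noncoding RNAs, and 1, Tmem173, had no entry under its symbol. Their control means ran from 5.07 to 534 CPM with a median of 11.8 CPM, against a median of 33.8 CPM over all genes at 5 CPM or more and 21.4 CPM over the later-falling genes. Of them, 66 reached 10 CPM in the control. Trh, Sfrp1 and Fstl1 held 32.6% of their summed control CPM. The sum over all 109 genes was 3206 CPM in the control and 762 CPM at 100 nM. Their median exon length was 3046 bases, as was that of all genes at 5 CPM or more.

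As the dose rose, the median level of the 109 genes went down at each step (see the plot of expression by dTAG13 dose). As a percentage of the control mean it was 75.5% at 0.3 nM (quartiles 69.4 and 83.2%), 55.1% at 1 nM, 45.6% at 3 nM, 34.7% at 10 nM, then 27.3% at 100 nM. The later-falling genes stood at 91.6, 81.2, 68.6, 53.3 and 38.4% at the same doses. The rule fixes part of this gap at 1 nM and the low end of both curves. The S-numbers in the labels run from 1 to 8 without repeats over the control, 1, 10 and 100 nM libraries, and those of 0.3 and 3 nM repeat 3 to 6; taking these as 2 S-series, at the steps that join the 2 series the dose and the series cannot be told apart. Within the first series the medians were 55.1, 34.7 and 27.3% of control. At 0.3 nM, a dose that the rule did not use but whose percentages share the control libraries with it, 3 of the 109 genes lay above their control mean and 4 lay at or under 50% of it. By the 1 nM dose, the median gene had gone through 63.6% of its whole fall from control to 100 nM. This share is made only of means that the rule used, so it follows in part from how the genes were chosen.

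**Figure D1:**
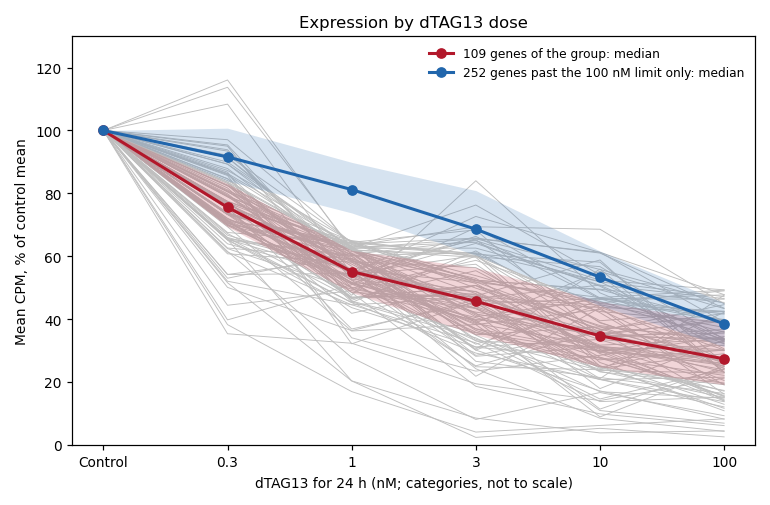
Mean CPM as a percentage of the control mean (vertical axis) at each dTAG13 dose (horizontal axis, doses as categories). Grey lines are the 109 genes, red and blue points are the medians of the 109 genes and of the 252 later-falling genes, and shading spans the quartiles; the red median drops to 55.1% at 1 nM, where the blue one is 81.2%.

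Judged by their means of 2 libraries, the genes differed in their course, but whether they share a single curve was not tested. The first dose at which the mean lay at or under 50% of control was 0.3 nM for 4 genes, 1 nM for 29, 3 nM for 44, 10 nM for 19 and 100 nM for 13. The mean went down at every step for 39 genes, went up at 1 step for 52 and at 2 or more for 18. In 28 genes the 100 nM mean was at or above the 10 nM mean, and in 32 the 3 nM mean was at or above the 1 nM mean. The genes were chosen for low means at 1 and 100 nM, which bears on both counts. Apart from the tests between 0.3, 3 and 10 nM, single steps were not tested.

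**Figure D2:**
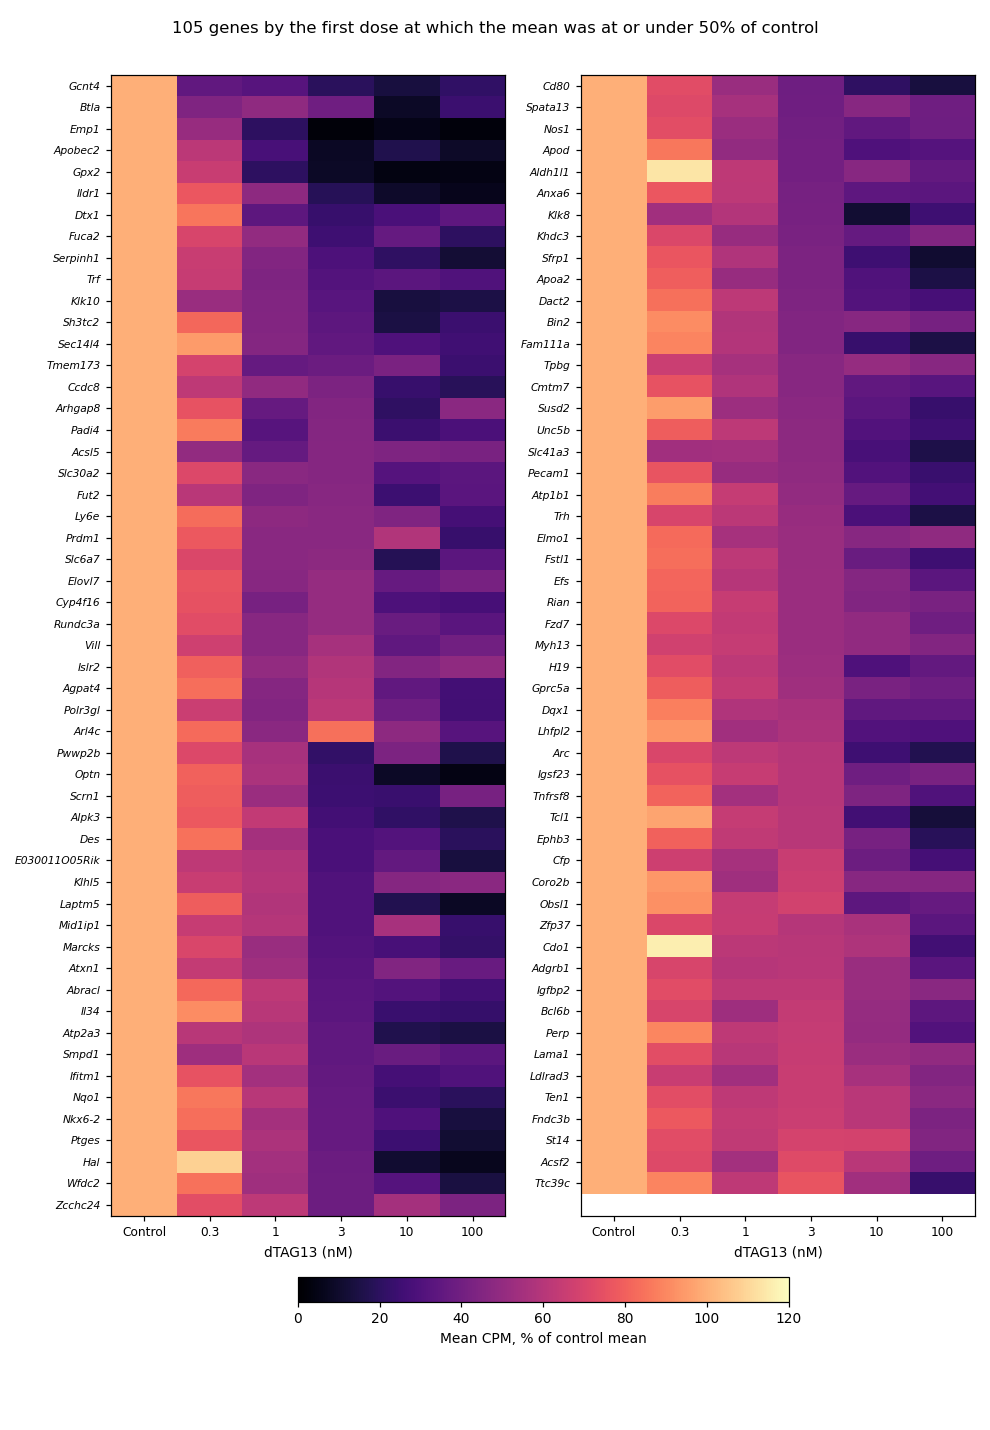
Each row is 1 gene, for 105 of the 109 genes, and each column a dose in nM, with colour giving mean CPM as a percentage of the control mean. Rows are sorted by the first dose at or under 50% of control, then by the 3 nM value; Gcnt4 and Btla head the sheet, and the 13 genes that reach 50% only at 100 nM close it.

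To ask whether the fall went on in libraries that had no part in choosing the genes, 3 nM was compared with 0.3 nM, within one S-series. In edgeR's quasi-likelihood fit over 12 libraries, with genes of at least 1 RPKM on average (11378), 99 of the 109 genes could be tested. Of these, 45 (45.5%) were lower at 3 nM and 0 were higher (Benjamini-Hochberg adjusted p under 0.05, more than 1.5-fold), where 1.2% of all tested genes were lower and 0.747% higher. At an unadjusted p under 0.05 from the same test, 66 were lower and 0 higher, and of 241 tested later-falling genes 146 were lower and 2 higher. The share over all tested genes at this looser limit was not determined, so these counts are not set against a background. The median log2 fold change of the 99 genes was -0.78, against -0.0005 over all tested genes. Since the RPKM minimum can let a gene in through the libraries where it is high, the fit was repeated on all 23204 genes with a count. There 54 of the 109 genes (49.5%) were lower and 0 were higher, where 0.965% of all genes were lower and 0.414% higher, and the median log2 fold change of all 109 was -0.82.

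The number of calls, 45 with all libraries, changed when a library was left out. Without the first 0.3 nM library, 24 genes were lower, and without any other of the 4 libraries 32 to 34 were. Of the genes named below as lower at 3 nM, Elmo1, Ly6e, Ptges and Atp2a3 were not called in a fit of the 4 libraries alone. With DESeq2 as the test they were not called either, nor were Tcl1, Rian, Des, Scrn1, Aldh1l1 and Pwwp2b. Both 3 nM libraries lay below both 0.3 nM libraries for 86 of the 109 genes (78.9%), where 16.9% of all tested genes did so. Of the later-falling genes, 55 of 241 tested were lower (22.8%), with a median log2 fold change of -0.44, and both libraries lay below both for 185 of 252 (73.4%). The difference between the 2 gene groups was not tested.

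**Figure D3:**
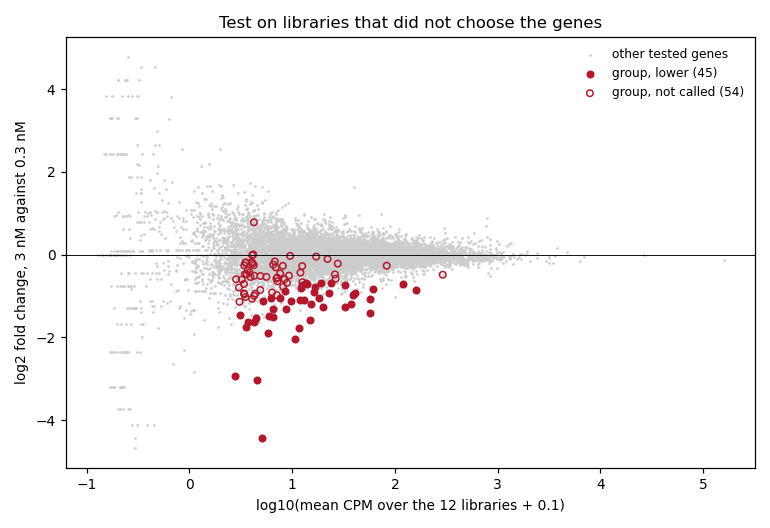
Log2 fold change at 3 nM against 0.3 nM (vertical axis) by mean CPM over the 12 libraries (horizontal axis, log10 scale) for the 11378 tested genes. Of the 99 tested genes of the group (red), 45 were lower (filled) and 54 were not called (open), and 97 of the 99 lie below 0.

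Between 3 and 10 nM fewer genes of the group passed the test. Of 99 tested, 9 (9.09%) were lower at 10 nM, where 0.22% of all tested genes were lower, and 0 were higher, where 0.0352% were. At an unadjusted p under 0.05, 30 were lower and 1 was higher, and of 241 tested later-falling genes 146 were lower and 0 higher. Here too the share over all tested genes was not determined. Among the 9 were Unc5b, Hal, Tcl1, Arc, Optn, Laptm5, Trh and Sfrp1. Of the 9, only Trh and Sfrp1 were still called in a fit of the 4 libraries alone. Without the RPKM minimum 12 of the 109 were lower (11%) and 0 higher, where 0.177% of all genes were lower and 0.0345% higher. The median log2 fold change was -0.46 for the 99 genes and -0.0025 for all tested genes. These counts rest on few libraries: 5 genes were lower without the first and 4 without the second 10 nM library, 3 without the second 3 nM library, and 2 in a fit of the 4 libraries alone. Both 10 nM libraries lay below both 3 nM libraries for 57 of the 109 genes (52.3%), where 14.5% of all tested genes did so. The later-falling genes had 14 of 241 lower (5.81%), a median of -0.40 and 183 of 252 (72.6%) with both libraries below both. This comparison shares the 3 nM libraries with the one before it and joins the 2 S-series.

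The largest falls between 0.3 and 3 nM among the tested genes were in Emp1, a tetraspan protein of epithelial membranes, and Gpx2, a glutathione peroxidase that reduces peroxides in epithelia. Emp1 (mm10 chromosome 6, 135362931 to 135383173) had 85 and 117 counts in the controls, 49 and 49 at 0.3 nM, 22 and 19 at 1 nM, 2 and 2 at 3 nM, 5 and 5 at 10 nM, then 2 and 3 at 100 nM. Almost the whole fall had taken place by 3 nM, and the 3, 10 and 100 nM libraries all held 5 counts or fewer. Its CPM from the summed counts was 22.3-fold lower at 3 nM than at 0.3 nM (95% exact counting interval 8.44 to 83.5), and the fitted log2 fold change was -4.43 ± 0.47 (s.e., adjusted p = 1.1e-06 from edgeR). At 100 nM its mean CPM was 2.51% of control.

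Gpx2 (chromosome 12, 76792335 to 76795554) had 72 and 89 counts in the controls, 50 and 49 at 0.3 nM, 14 and 19 at 1 nM, 8 and 3 at 3 nM, 5 and 1 at 10 nM, then 5 and 2 at 100 nM. Its libraries fell into separate ranges at control, 0.3 nM and 1 nM, while those at 3, 10 and 100 nM overlapped. At 3 nM it was 8.19-fold lower than at 0.3 nM (95% counting interval 4.39 to 16.9), with a log2 fold change of -3.03 ± 0.44 (s.e., adjusted p = 7.4e-05 from edgeR). Intervals cover counting error only, since reads without molecular identifiers are not independent molecules.

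Of the 12 genes lowest at 100 nM relative to control, 10 had a RefSeq promoter window of 250 bases before to 50 after the start of the gene. These windows were searched on both strands for 6 letter patterns, which may overlap each other: AP-1 (TGANTCA), STAT (TTCNNNGAA), the antioxidant response element (TGACNNNGC), the SP and KLF box (GGGCGG), the NFY box (CCAAT) and the E-box (CACGTG). The AP-1 pattern, in which N is any base, was found in 2 of the 10 windows, those of Emp1 and Hal. Dimers of FOS and JUN proteins typically bind the forms with C or G at the centre. Of the matches, only the TGAGTCA of Emp1 has such a form, and the other Emp1 match and the Hal match are TGATTCA. In the windows of 7493 genes at 5 CPM or more, the pattern with any base at the centre occurred in 4.03%, and in 3.5% of the part before the start alone. The other patterns were found in 7 of the 10 windows for the SP and KLF box (69.2% of the windows of all genes at 5 CPM or more), 4 for the NFY box (39.8%), 1 for STAT (6.81%), 1 for the antioxidant response element (15.1%) and 0 for the E-box (11.3%). The 250 bases before the start of both genes are shown for these matches, which are in capitals, and they were picked after the values were seen. The Emp1 window is chr6:135362681-135362930 on the plus strand, with matches 145 and 25 bases before the start, and the Hal window is chr10:93488518-93488767 on the plus strand, with 1 match 239 bases before it (GRCm38.p6, sequences from RefSeq).
Emp1: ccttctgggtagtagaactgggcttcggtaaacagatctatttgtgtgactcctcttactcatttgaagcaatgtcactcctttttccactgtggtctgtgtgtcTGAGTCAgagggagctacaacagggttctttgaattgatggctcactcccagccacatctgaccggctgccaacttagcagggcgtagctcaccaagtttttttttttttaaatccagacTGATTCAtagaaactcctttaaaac
Hal: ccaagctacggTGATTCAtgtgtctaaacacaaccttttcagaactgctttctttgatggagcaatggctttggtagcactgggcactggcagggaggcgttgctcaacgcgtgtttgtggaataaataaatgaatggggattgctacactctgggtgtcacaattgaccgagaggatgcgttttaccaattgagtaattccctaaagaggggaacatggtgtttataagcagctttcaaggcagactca
Over the whole group no promoter statistic is given, because only 76 of the 109 genes (69.7%, under the 80% required) had a window and the check is void. A match describes the letters and no binding was measured.

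**Figure D4:**
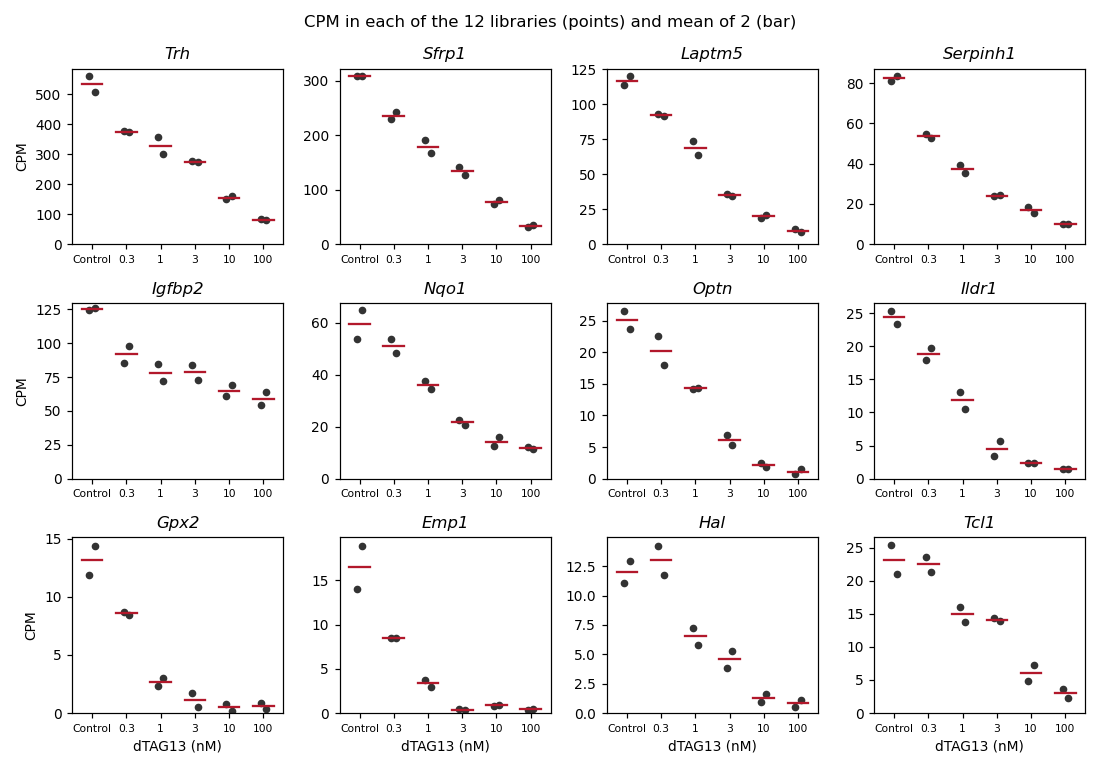
CPM (vertical axes, each from 0) in each of the 12 libraries for 12 genes, by dTAG13 dose in nM (horizontal axes, categories). Points are libraries and bars are means of 2; Emp1 and Gpx2 are near 0 from 3 nM on, whereas Igfbp2 levels off at 54.2 to 69.3 CPM at 10 and 100 nM.

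Among secreted proteins, Trh, the precursor of thyrotropin-releasing hormone, had the highest level per length of the group in the control (401 RPKM). It had 562 and 507 CPM in the controls, 378 and 373 at 0.3 nM, 357 and 300 at 1 nM, 276 and 273 at 3 nM, 151 and 159 at 10 nM, then 82.9 and 81.3 at 100 nM. Both libraries of each dose lay below both libraries of the dose before it. At 3 nM its log2 fold change against 0.3 nM was -0.49 ± 0.07 (s.e., adjusted p = 6.5e-05), under the 1.5-fold minimum, and at 10 nM against 3 nM it was -0.84 (adjusted p = 2.4e-07), both from edgeR. Sfrp1, a secreted antagonist of WNT ligands, had 309 and 308 CPM in the controls, 229 and 242 at 0.3 nM, 192 and 167 at 1 nM, 141 and 126 at 3 nM, 74.1 and 81.1 at 10 nM, then 30.8 and 35.9 at 100 nM. No 2 doses overlapped for Sfrp1, and both of its tested steps passed (log2 fold change -0.85, then -0.80).

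For the counts by role given from here on, 1.2% of all tested genes and 45.5% of the 99 tested genes of the group were lower at 3 nM. In all, 9 secreted ligands, binding proteins and plasma proteins were in the group, and 4 of them were lower at 3 nM than at 0.3 nM. Besides Sfrp1 these were Fstl1, a follistatin-like glycoprotein (-0.72 on the log2 scale), Il34, a ligand of the CSF1 receptor (-1.47), and Wfdc2, a whey acidic protein family member (-1.13). The apolipoproteins Apoa2 and Apod and transferrin (Trf) were not called, with values of -0.91, -1.07 and -0.99. Igfbp2, which binds insulin-like growth factors, stood apart. Its CPM was 125 and 126 in the controls, 85.7 and 98.1 at 0.3 nM, 84.5 and 72.2 at 1 nM, 83.8 and 73.0 at 3 nM, 60.7 and 69.3 at 10 nM, then 54.2 and 63.9 at 100 nM. Its 0.3 and 3 nM libraries did not overlap but the step was small (-0.27, adjusted p = 0.10 from edgeR), and its 10 and 100 nM libraries overlapped.

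Basement membrane, junction and adhesion genes were 7 in number, of which 5 were lower at 3 nM. Serpinh1 (HSP47), the collagen chaperone of the endoplasmic reticulum, had 81.2 and 83.6 CPM in the controls, 54.6 and 52.9 at 0.3 nM, 39.2 and 35.3 at 1 nM, 23.8 and 24.3 at 3 nM, 18.6 and 15.7 at 10 nM, then 9.88 and 9.96 at 100 nM. Its doses did not overlap, and its log2 fold change at 3 nM was -1.19 ± 0.12 (s.e., adjusted p = 4.6e-07 from edgeR). Ildr1, a receptor at tricellular tight junctions, fell from 17.9 and 19.8 CPM at 0.3 nM to 3.43 and 5.64 at 3 nM (log2 fold change -2.04 ± 0.24, s.e., adjusted p = 4e-06), with 25.4 and 23.4 in the controls, 13.1 and 10.5 at 1 nM, 2.42 and 2.37 at 10 nM, then 1.51 and 1.47 at 100 nM. No doses overlapped for Ildr1 either. The adhesion molecule Pecam1 (-0.68) was also lower, as was Emp1. Lama1, the laminin α-chain of the embryonic basement membrane, and Perp, a desmosomal protein induced by p53, were not called (-0.22 and -0.51), and Lama1 was the gene closest to the 100 nM limit at 49.3% of control.

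Of 4 genes of the group for proteases or protease inhibitors, 0 were lower at 3 nM than at 0.3 nM, where 1.2% of all tested genes were. With 4 genes, a count of 0 does not set them apart. The membrane protease St14 (matriptase) stood at 63.3% of control at 1 nM, 69.4% at 3 nM, 68.6% at 10 nM, then 44.9% at 100 nM. The kallikreins Klk8 and Klk10, which lie 12167 bases apart on chromosome 7, were at 41.9 and 32.4% of control at 3 nM, at 11.3 and 13.7% at 10 nM, and at 24.9 and 15.1% at 100 nM. Genes of other roles with a 3 nM mean at or above the 0.3 nM mean were Arl4c (102%), Acsf2 (101%) and Ldlrad3 (100%).

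Of 4 regulators of WNT and NOTCH signalling, Dact2, an intracellular modulator of WNT signalling (-0.98), and Dtx1, a Deltex ubiquitin ligase of the NOTCH pathway (-1.89), were lower at 3 nM. The WNT receptor Fzd7 had an adjusted p of 0.031 with a change of -0.48, under the fold minimum, and Tpbg had -0.54 (adjusted p = 0.34, both from edgeR). Of 4 genes for guidance and neuronal surface proteins, the netrin receptor Unc5b was lower at 3 nM (-0.74) and again at 10 nM (-0.69). The second Unc5b step was not called in a fit of the 4 libraries alone. The ephrin receptor Ephb3, Islr2 and Adgrb1 were not called, although Ephb3 went from 60.9% of control at 3 nM to 19% at 100 nM.

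Genes best known from immune cells were 8 in number, and 3 of 7 tested were lower at 3 nM. Laptm5, a lysosomal membrane protein of blood cells, had 114 and 120 CPM in the controls, 92.9 and 91.4 at 0.3 nM, 73.6 and 63.8 at 1 nM, 35.8 and 34.5 at 3 nM, 18.9 and 21.2 at 10 nM, then 10.5 and 8.49 at 100 nM. The doses did not overlap, and both tested steps passed (log2 fold changes -1.42 ± 0.10 and -0.83, adjusted p = 8.5e-10 and 0.00052 from edgeR). The second Laptm5 step was not called in a fit of the 4 libraries alone. The interferon-induced Ifitm1 (-1.09) and the GPI-anchored Ly6e (-0.87) were also lower at 3 nM. The costimulatory ligand Cd80, the CD30 gene Tnfrsf8, STING (Tmem173) and properdin (Cfp) were not called, with changes from -0.94 to -0.02, and Btla did not reach the RPKM minimum.

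Of 6 genes for ion pumps and solute carriers, 2 of 4 tested were lower at 3 nM. Atp1b1, the β1 subunit of the sodium pump, stood at 87.3, 64.6, 49.8, 36.9 and 26.3% of control with rising dose and was one of them (-0.84, adjusted p = 0.00012 from edgeR). The calcium pump Atp2a3 was the other (-0.80), whereas the zinc carrier Slc30a2 and the magnesium carrier Slc41a3 were not called and the proline carrier Slc6a7 was under the minimum.

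Redox and metabolic enzymes numbered 17, of which 6 of 15 tested were lower at 3 nM. Nqo1, the quinone reductase of the antioxidant response, had 53.9 and 64.8 CPM in the controls, 53.6 and 48.5 at 0.3 nM, 37.7 and 34.5 at 1 nM, 22.5 and 20.7 at 3 nM, 12.4 and 16 at 10 nM, then 12.1 and 11.3 at 100 nM. Its 0.3 nM libraries were below both controls, and its log2 fold change at 3 nM was -1.27 ± 0.13 (s.e., adjusted p = 4.1e-07 from edgeR). Hal, the histidine ammonia-lyase, was 108% of control with 0.3 nM, 54.4% with 1 nM and 6.86% with 100 nM. Both of its tested steps passed (-1.51 and -1.85), but the second was not called in a fit of the 4 libraries alone. The other enzymes lower at 3 nM were Gpx2, the neuronal nitric oxide synthase Nos1 (-0.94), the prostaglandin E synthase Ptges (-1.11) and the folate enzyme Aldh1l1 (-1.54). Aldh1l1 and Slc41a3 lie 5709 bases apart on chromosome 6 with no gene of the table between them, and Slc41a3 had a change of -0.19.

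Genes for the cytoskeleton, muscle and small GTPase signalling numbered 15, and 9 of 13 tested were lower at 3 nM. They included Alpk3, a muscle kinase-like protein (-1.58), the intermediate filament desmin (Des, -1.62), the membrane-actin linker Marcks (-1.20) and Anxa6, a calcium-dependent membrane binder (-0.93). Alpk3 had 22.1 and 22.6 CPM at 0.3 nM and 8.15 and 7.18 at 3 nM, with no overlap. The exchange factor gene Spata13, the RAC activator Elmo1, Bin2 and Abracl were lower too, but Elmo1 was not called in a fit of the 4 libraries alone. Spata13, Elmo1 and Bin2 changed little after 3 nM, at 39.5, 51.7 and 44.8% of control at 3 nM and 39.8, 49.2 and 41.6% at 100 nM. Reads of Des cannot be told apart from those of Gm15179 on the other strand, since counting did not use strand, and the same holds for Atp1b1 and Nme7, Apoa2 and Tomm40l, Arhgap8 and Gm20556, and Nkx6-2 and Inpp5a.

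**Figure D5:**
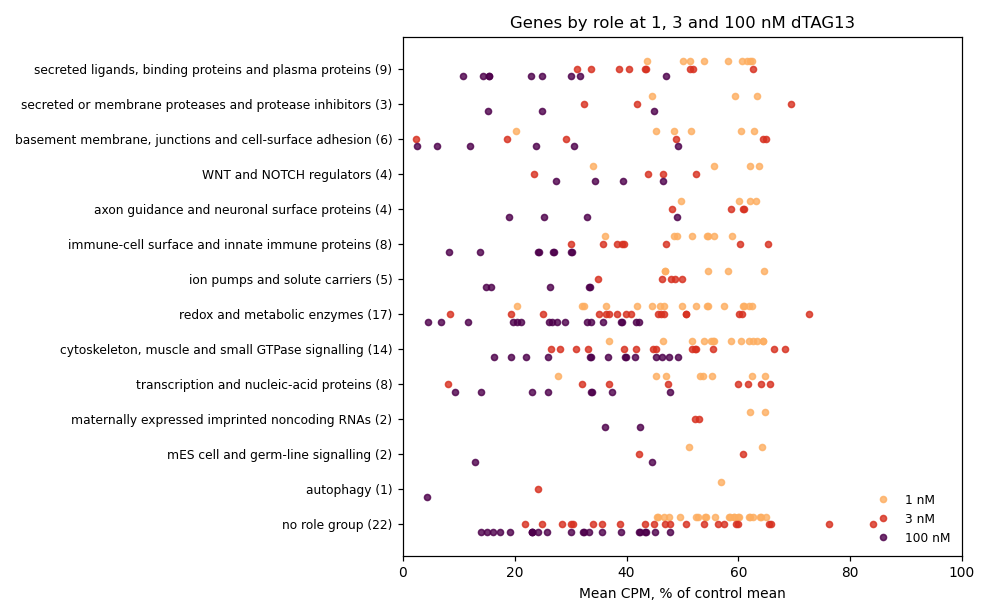
Mean CPM as a percentage of the control mean (horizontal axis) for 105 of the 109 genes at 1, 3 and 100 nM dTAG13, with genes grouped by role (vertical axis, number of genes drawn in brackets). Each point is 1 gene at 1 dose; the basement membrane, junction and adhesion genes reach from 2.51 to 49.3% at 100 nM, with Emp1 lowest and Lama1 highest.

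Regulators of transcription were also in the group. Of 8 genes for transcription and nucleic-acid proteins, 2 of 6 tested were lower at 3 nM, namely the homeobox gene Nkx6-2 (-1.26) and Apobec2, a member of the cytidine deaminase family. Apobec2 had 42 and 46 counts in the controls, 26 and 25 at 0.3 nM, 19 and 5 at 1 nM, 3 and 3 at 3 nM, 8 and 6 at 10 nM, then 5 and 3 at 100 nM, and its ratio between 0.3 and 3 nM was 7.74 (95% counting interval 3.32 to 22.1). The germ-cell repressor Prdm1 was close to the control limit at 5.38 CPM and was under the RPKM minimum. Rian and H19, noncoding RNAs expressed from the maternal allele of imprinted loci, were at 64.8 and 62.0% of control at 1 nM, and Rian was lower at 3 nM (-0.67, adjusted p = 0.014 from edgeR). The H19 gene holds Mir675 within its exon.

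The mES and germ-line genes Tcl1 and Khdc3 were both lower at 3 nM, by -0.71 and -0.78 on the log2 scale. Tcl1, a co-activator of AKT, had 25.4 and 21.0 CPM in the controls, 23.6 and 21.4 at 0.3 nM, 16 and 13.8 at 1 nM, 14.4 and 13.8 at 3 nM, 4.84 and 7.29 at 10 nM, then 3.68 and 2.29 at 100 nM. Its 0.3 nM libraries overlapped the controls, its 1 and 3 nM libraries overlapped, and a second step came at 10 nM (-1.24, adjusted p = 0.0045 from edgeR). That step was not called in a fit of the 4 libraries alone. Khdc3, a subunit of the oocyte subcortical maternal complex, went from 42.2% of control at 3 nM to 44.6% at 100 nM. Optn, the autophagy receptor optineurin, had 26.5 and 23.8 CPM in the controls, 22.6 and 17.9 at 0.3 nM, 14.1 and 14.4 at 1 nM, 6.86 and 5.30 at 3 nM, 2.42 and 1.82 at 10 nM, then 0.67 and 1.47 at 100 nM. No doses overlapped, and both tested steps passed (-1.78 and -1.49, adjusted p = 1.2e-05 and 0.029 from edgeR). The second Optn step was not called in a fit of the 4 libraries alone. The remaining 22 genes were given no role, and 7 of 21 tested were lower at 3 nM, among them Pwwp2b (-1.75) and Scrn1 (-1.62).

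Pathway and marker lists written with earlier results of these data known held 11 genes of the group. These were 11 of the 266 listed genes at 5 CPM or more in the control (4.14%), where the group made up 1.11% of all genes at that level. Because the lists were not written independently of these data, the difference between these shares tests nothing. They lay in 8 of 24 lists, and of the 16 lists with none, the mES cell markers among them, 2 had no gene at 5 CPM and could hold none. In the antioxidant list 3 of 20 tested genes were lower at 3 nM than at 0.3 nM (Gpx2, Nqo1 and Gsto1) and 0 higher, with a list median of -0.11. In the epithelial junction list 2 of 23 were lower (Ildr1 and Cldn4), with a median of -0.25, and in the list of keratin, EMP and annexin genes 2 of 14 were (Emp1 and Krt8), with a median of -0.09. The matrix and collagen list had 1 of 20 lower (Serpinh1) and 2 higher (Col4a1 and Col4a2), with a median of 0.16. Tcl1 was the single lower gene of 18 in the LIF-STAT3 list, and Optn of 14 in the autophagy receptor list. The p53 list had Btg2 lower of 16, with Perp not called, and the IGF list had 0 of 6 lower, with Igfbp2 in it. Over all tested genes 1.2% were lower, with a median of -0.0005.

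The genes were spread over the chromosomes, with 12 on chromosome 7 and 10 on chromosome 1 as the highest numbers. Pairs within 500000 bases were Des and Obsl1, Adgrb1 and Arc, Arc and Ly6e, Aldh1l1 and Slc41a3, Gprc5a and Emp1, Klk10 and Klk8, and Pwwp2b and Nkx6-2. Gprc5a, 278223 bases from Emp1, had a change of -0.58 at 3 nM.

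The limits of the rule passed between genes of like values. At the 1 nM limit, Igsf23, Rian and Zfp37 were just inside at 65, 64.8 and 64.7% of control, and Cd180, Mir5133 and Plch1 just outside at 65.1, 65.3 and 65.4%. At the 100 nM limit Lama1, Elmo1 and Islr2 were just inside at 49.3, 49.2 and 49.0%, and Capn5, Adgrv1 and Stom just outside at 51.5, 51.9 and 52.0%. At the control limit Cyp4f16, Prdm1 and Arhgap8 were just inside at 5.07, 5.38 and 5.39 CPM, and Lrrc31, Synpo2l and Gm867 just outside at 4.98, 4.73 and 4.66 CPM.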

How the data were processed

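The deposited values are raw counts of read pairs for each gene, not normalized by the authors, from total RNA made into libraries with the SMART-Seq Stranded kit. Reads were trimmed with Trim Galore, aligned to mm10 with HISAT2 and counted on exons with featureCounts 2.0.1 without using strand, and exon lengths came in the same table. CPM used library totals for the rule, and RPKM used TMM sizes. Genes averaging 1 RPKM or more were tested with edgeR 4.0.16 (R 4.3.3, limma 3.58.1) by quasi-likelihood over 12 libraries, with Benjamini-Hochberg adjustment over all 11378 genes. Log2 fold changes are from this fit unless the RPKM minimum is said to be left out, and adjusted p-values are two-sided. Each s.e. was worked out from the test, as the absolute log2 fold change over the square root of its F statistic. It is therefore approximate, above all for genes with few counts. Groups came from the labels, and no column was left out. The steps were tested on simulated counts. Alternatives covered test, normalization, filter, libraries, replicate block and the rule's limits.

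The members, lists and roles were chosen with earlier results of these data known. Genes named with values were the 12 highest in the control by RPKM, the 12 lowest at 100 nM relative to control, the 10 with the largest called falls at 3 nM, those in a list, those whose 3 nM mean was not below 0.3 nM, and the 3 nearest each limit. Others were added by role after their values were seen. Sequences came from RefSeq tables of GRCm38.p6. Some genes that these rules name are not reported here.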

Additional observations from a re-analysis of the deposited data

How the results depend on the processing

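The number of genes that met the rule was 66 with a control minimum of 10 CPM, 73 with a 1 nM limit of 0.6, 123 with TMM library sizes (109 of them shared) and 121 without Rn45s and Rpph1 (104 shared), and 100 to 137 with each library left out in turn; 53 genes met it in every such run. Between 0.3 and 3 nM the count of lower genes was 31 to 54 over the other tests, normalizations, filters and fits, with 31 from DESeq2 1.42.0, and 24 to 34 with a library left out. The median log2 fold change was -0.79 to -0.78 with a library left out and -0.74 without normalization factors. Between 3 and 10 nM the count was 2 in a fit of the 4 libraries alone, 6 with DESeq2, 6 without normalization factors, 12 with the likelihood ratio test and 3 to 8 with a library left out, and the median was -0.42 to -0.38 with a library left out, -0.45 with upper-quartile factors and -0.44 without factors. The cause of these moves was not tested. Of the 45 and 9 called genes, 22 and 2 were called under every alternative, and none of them changed direction. With the replicate block the counts were 44 and 8. Samples with the same replicate number did not deviate together (correlations -0.12 to 0.098 over all pairs of groups), so that no pairing by number was seen. Sampling noise in single genes also lowers such correlations, so they cannot exclude that samples of the same number were handled together. At these depths, genes under 10 CPM in the control (43 of 109) had few counts at the high doses, which limits how well their steps can be resolved. Calls were not split by control level, and Des, at 6.85 CPM in the control, was called lower at 3 nM.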
